A study of Mus musculus with 3 samples.

Results

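The genes described are 8 that encode receptors and adhesion molecules of blood progenitors: Cxcr4, Itga4, Itgb1, Cd44, Selplg, Emb, Esam and Adgrl4. They were taken by symbol from the gene expression rows of the deposited matrices, and all 8 were found among 32285 genes. Their UMIs (unique molecular identifiers, each standing for 1 captured RNA molecule) were summed per library and per lineage, where a lineage is a set of cell clusters recognised by marker genes. The cells came from mouse liver on the day of birth (P0), when the liver still makes blood, and were sorted as lineage-negative and KIT-positive, which keeps progenitors and removes most mature blood cells. RNA and 10 antibody tags on surface proteins were read from the same cells (CITE-seq). There were 3 libraries, 1 per genotype: MLL-ENL mice with Skida1 deleted (here the Skida1-deleted library), MLL-ENL mice, and Control mice. MLL-ENL is a leukaemia fusion of the MLL and ENL genes, and both MLL-ENL groups carry it. How the fusion is driven, which segment of Skida1 is deleted and how many animals were pooled are not given in the labels used here.

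Leaving the circulation or staying in a niche takes several steps for a blood progenitor. Selectin ligands such as PSGL-1 and CD44 slow cells on a vessel wall, the chemokine CXCL12 signals through CXCR4, and the integrin VLA-4, a pair of ITGA4 and ITGB1, then holds cells to VCAM-1 and fibronectin. Stem cells of the fetal liver leave it around birth to settle in the bone marrow, and CXCL12 and VLA-4 are among the molecules known to matter there.

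With 1 library per genotype there was no replicate, so no test between genotypes is given. Levels are given as CPM, the UMIs of a gene per 1000000 gene UMIs of the lineage, with a 95% exact Poisson interval, and folds have a 95% exact conditional binomial interval. Both intervals cover counting error only, not the spread between animals or preparations. Genotype, animals and preparation of a library cannot be told apart, nor can sex where it differs between libraries. A gene was counted as higher or lower in a comparison when the ratio of its levels, each plus 1 CPM, passed 1.5-fold in a lineage where either library had at least 5 CPM. Counts of the 8 genes are set beside the percentage of all measured genes that passed the same rule. The method reads the 3' end of each RNA, so levels of different genes are not compared.

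After filters on cells, 9344 cells of the Skida1-deleted library, 10807 MLL-ENL cells and 5394 Control cells remained, with 182098333, 187247885 and 156954799 gene UMIs. The median cell held 17246.5 UMIs in the Skida1-deleted library, 13918 in MLL-ENL and 28031.5 in Control. At most 33 barcodes were shared by any 2 libraries. Skida1 itself had 1.81 CPM in Skida1-deleted HSPC-like cells, 16.6 in those of MLL-ENL and 0.984 in those of Control. Over all kept cells Xist stood at 2.11 CPM in the Skida1-deleted library, 1041 in MLL-ENL and 642 in Control, while the Y-linked gene Ddx3y had 57.2 CPM in the Skida1-deleted library and 0 UMIs in both other libraries. By these genes the Skida1-deleted library differed from both others in the sex of its animals as well as in genotype, while MLL-ENL and Control did not differ in sex. None of the 8 genes lies on a sex chromosome.

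The 5 lineages compared were named from markers. HSPC-like cells (haematopoietic stem and early progenitor cells, with Hlf as a leading marker) numbered 2281 in the Skida1-deleted library, 1712 in MLL-ENL and 1164 in Control. Clusters 4, 7 and 11 held nearly all of them in both MLL-ENL libraries, whereas clusters 12 and 20 held most of the Control ones. Hlf was among the leading genes of each of these clusters, Gcnt2 of clusters 4, 11 and 20, and Mecom of clusters 7 and 11. The globin gene Hbb-bt, an erythroid marker, was also among the leading genes of each. The immune genes Trbc2 and Ccl4 were among the leading genes of several of these clusters. The 8 genes were left out of the genes used for clustering. The median depths of HSPC-like cells were 8859, 10099 and 15144.5 UMIs. By a score of cell cycle genes 49.8% of them were assigned to the G1 phase in the Skida1-deleted library, 54.2% in MLL-ENL and 29.7% in Control. Scored on cells thinned to 3000 UMIs, which left out 20, 2 and 5 cells, the shares were 44.9%, 50.6% and 27.2%. These are calls from RNA alone, and free RNA in the droplets can enter them. Erythroid-like cells were the most numerous lineage, with 5175, 7563 and 3521 cells in the Skida1-deleted, MLL-ENL and Control libraries. These, too, lay in different clusters in Control than in both MLL-ENL libraries. Megakaryocyte-like cells numbered 1080, 709 and 123, basophil-mast-like cells 331, 300 and 160, and granulocyte progenitor-like cells 340, 398 and 182, in the same order of libraries.

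The promoters of Cxcr4, Emb and Adgrl4 are shown as examples. Each of these genes passed 1.5-fold between libraries in some lineage, as did others of the 8 genes. The sequences are the 250 bases before the annotated start of each gene, 5′ to 3′ along the gene, from RefSeq on GRCm38.p6. The table held promoters for 6 of the 8 genes; Selplg and Esam were not among them. Capitals mark exact matches, on either strand, to 5 motifs: AGATAA for GATA factors, TGTGGT for RUNX, GAGGAA for PU.1-type ETS factors, TGACAG for MEIS and GGGCGG for the GC box. The Cxcr4 window is chr1:128592300-128592549 on the minus strand, the Emb window chr13:117220323-117220572 on the plus strand, and the Adgrl4 window chr3:151437632-151437881 on the plus strand.

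Cxcr4: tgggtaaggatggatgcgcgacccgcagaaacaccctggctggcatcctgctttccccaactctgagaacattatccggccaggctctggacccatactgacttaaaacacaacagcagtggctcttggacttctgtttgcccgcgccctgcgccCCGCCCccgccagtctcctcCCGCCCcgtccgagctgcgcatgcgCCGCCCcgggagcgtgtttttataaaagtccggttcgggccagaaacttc

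Emb: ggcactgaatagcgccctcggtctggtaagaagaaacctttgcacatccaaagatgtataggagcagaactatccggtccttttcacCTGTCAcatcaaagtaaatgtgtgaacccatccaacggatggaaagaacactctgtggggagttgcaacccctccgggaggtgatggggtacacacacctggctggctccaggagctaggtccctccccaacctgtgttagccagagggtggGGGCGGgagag

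Adgrl4: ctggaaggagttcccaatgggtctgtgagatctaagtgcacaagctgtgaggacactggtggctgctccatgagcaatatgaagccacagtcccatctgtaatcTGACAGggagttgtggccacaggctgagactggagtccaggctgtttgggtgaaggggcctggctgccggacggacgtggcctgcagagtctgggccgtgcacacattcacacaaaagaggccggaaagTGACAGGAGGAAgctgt

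The Cxcr4 window held the GC box 3 times, each on the opposite strand (printed as CCGCCC), with first bases 95, 75 and 50 bases before the start. The Emb window held TGACAG once on the opposite strand (printed as CTGTCA), 163 bases before the start, and the GC box 11 bases before it. The Adgrl4 window held TGACAG at 146 and 17 bases before the start, and the second copy directly adjoins a GAGGAA at 11 bases. Of 32851 mouse promoter windows of this length, 9.99% held AGATAA, 14.0% TGTGGT, 23.3% GAGGAA, 15.9% TGACAG and 32.7% GGGCGG. Among the other windows, Itga4 had TGTGGT and GGGCGG, Itgb1 had GAGGAA and GGGCGG, and Cd44 had AGATAA and GAGGAA, so the 6 windows had no single motif in common. A match describes letters only, and whether a factor binds there was not measured.

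**Figure D1:**
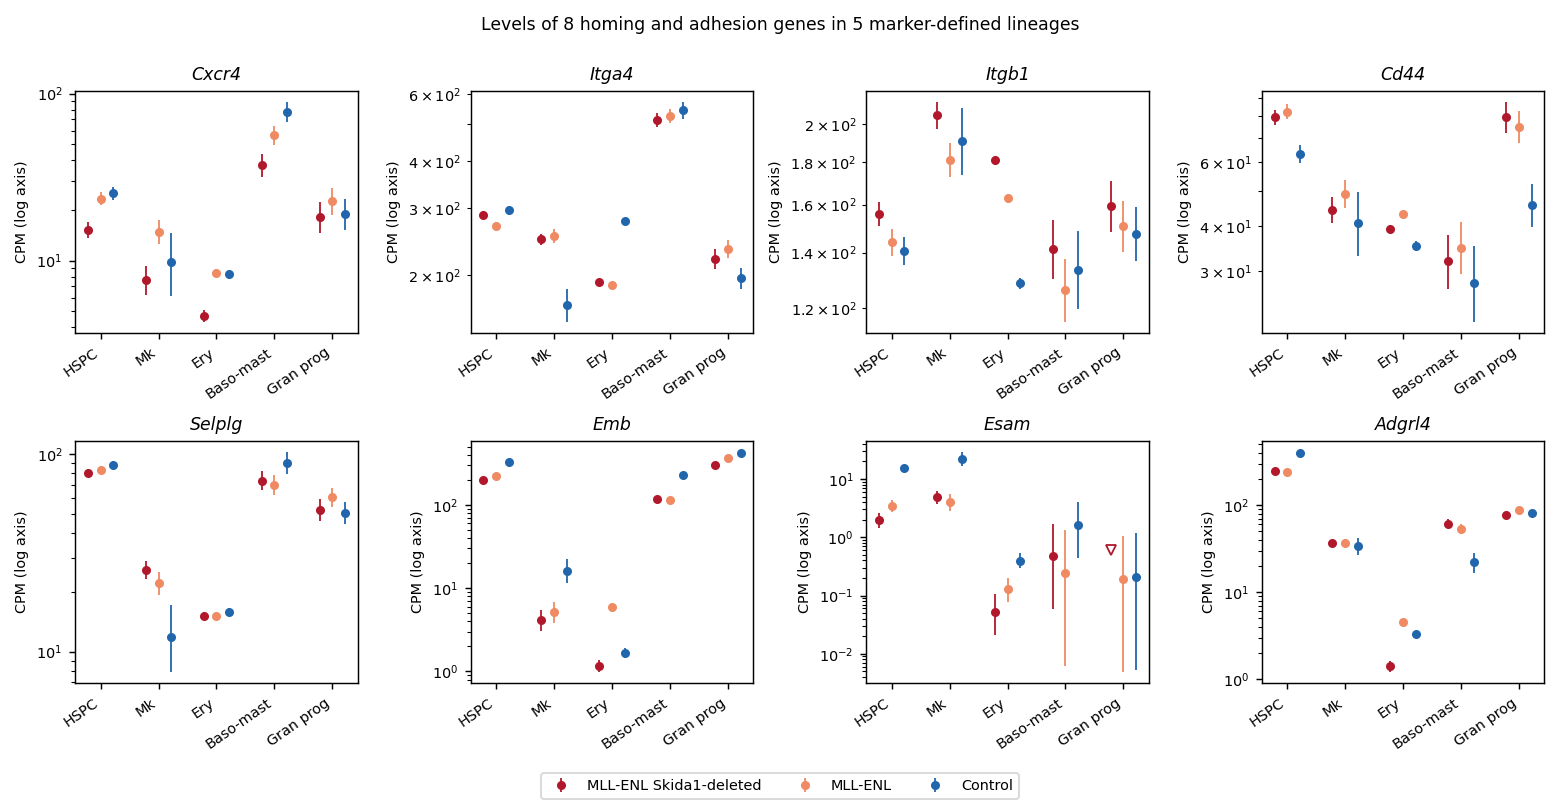
Level of each of the 8 genes (CPM, log axis) in 5 marker-defined lineages, with points for the Skida1-deleted, MLL-ENL and Control libraries, bars for 95% exact Poisson intervals (counting error only) and an open triangle for the level of 3 UMIs where none was counted. Cxcr4 in HSPC-like, megakaryocyte-like, erythroid-like and basophil-mast-like cells of the Skida1-deleted library lies below MLL-ENL, while Esam in HSPC-like cells stands at 1.99, 3.43 and 15.2 in the Skida1-deleted, MLL-ENL and Control libraries.

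Cxcr4 (ENSMUSG00000045382, chromosome 1, 128588199-128592299) encodes the receptor for CXCL12, the chemokine that retains stem cells in the marrow niche. In HSPC-like cells it had 15.3 CPM in the Skida1-deleted library (95% interval 13.7 to 17.0, 354 UMIs), 23.5 in MLL-ENL (21.4 to 25.8, 466 UMIs) and 25.3 in Control (23.1 to 27.6, 488 UMIs). The Skida1-deleted library was the low one, and the intervals of MLL-ENL and Control overlapped.

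The Skida1-deleted over MLL-ENL fold for Cxcr4 in HSPC-like cells was 0.650 (0.564 to 0.748), a log2 ratio of -0.59. It was the only one of 7 measured genes past 1.5-fold lower, against 0.846% of all 9579 genes measured in HSPC-like cells, and 0 of 7 were higher, against 1.47%. Because this ratio lay just past 1.5-fold, its side of that line depended on the processing: it ranged between -0.62 and -0.43 on the log2 scale over 17 alternatives, negative in all 17 and past 1.5-fold in 5. Among these 5 are the omission of erythroid-like clusters of low depth and a lower CPM limit, neither of which can change this ratio. Between MLL-ENL and Control the fold was 0.931 (0.818 to 1.06).

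Cxcr4 was lower in the Skida1-deleted library in all 5 lineages, though not past the threshold in each. Megakaryocyte-like cells had 7.64 CPM of Cxcr4 in the Skida1-deleted library (98 UMIs), 14.8 in MLL-ENL (144 UMIs) and 9.74 in Control (23 UMIs). The Skida1-deleted over MLL-ENL fold there was 0.514 (0.394 to 0.670), and Cxcr4 was again the only one of 7 genes past 1.5-fold lower, against 1.18% of all genes, while 0 of 7 were higher, against 1.53%. In erythroid-like cells the levels were 4.65, 8.41 and 8.31 in the Skida1-deleted, MLL-ENL and Control libraries. The fold over MLL-ENL was 0.553 (0.502 to 0.609), and 2 of 6 measured genes, Cxcr4 and Emb, were past 1.5-fold lower there, against 0.866% of all genes, while 0 of 6 were higher, against 0.890%. Over the alternatives the Cxcr4 log2 ratio lay between -1.17 and -0.53 in megakaryocyte-like cells and between -0.96 and 0.61 in erythroid-like cells, where the only positive value came from 7 and 9 UMIs in G1 cells. Basophil-mast-like cells had 37.2 CPM in the Skida1-deleted library, 56.2 in MLL-ENL and 77.8 in Control. The fold of 0.661 (0.536 to 0.814) over MLL-ENL missed the threshold on the scale with 1 CPM added (log2 ratio -0.58), so 0 of 7 genes were past it, against 4.34% of all genes, and 0 of 7 were higher, against 3.61%. In granulocyte progenitor-like cells the levels were 18.3, 22.7 and 19.0, and the interval of the fold of 0.807 (0.607 to 1.07) over MLL-ENL included 1. There, 0 of 7 genes were past 1.5-fold lower, against 4.55% of all genes, and 0 of 7 higher, against 2.73%. Over all kept cells together Cxcr4 had 7.50, 12.1 and 13.3 CPM in the Skida1-deleted, MLL-ENL and Control libraries. The fold of 0.620 (0.580 to 0.664) over MLL-ENL made it the only one of 7 genes past the threshold, against 0.559% of all genes, and 0 of 7 were higher, against 0.924%.

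Because both MLL-ENL libraries shared clusters, the comparison could be repeated inside each of the 13 clusters with at least 100 cells in both. Cxcr4 was lower in the Skida1-deleted library in 13 of 13, with folds between 0.386 and 0.854 (median 0.638), and in 8 of them the interval lay below 1. In HSPC-like cluster 4 it had 13.6 CPM in the Skida1-deleted library and 21.3 in MLL-ENL, in cluster 7 it had 12.6 and 17.6, and in cluster 11 it had 17.5 and 27.8. Control stood at 24.3 in its HSPC-like cluster 12 and 26.4 in cluster 20, close to MLL-ENL cluster 11. Among megakaryocyte-like cells the folds were 0.572 (0.408 to 0.797) in cluster 6 and 0.424 (0.267 to 0.663) in cluster 17. Erythroid-like clusters varied more: cluster 9 had 12.5 and 17.9 CPM, and cluster 8 had 9.11 and 10.7, with a fold of 0.854 (0.648 to 1.13). The lowest fold, 0.386, came from cluster 19 with 4 and 5 UMIs. Clusters come from the same pair of libraries and are not replicates.

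None of the other 7 genes was lower in all 13 shared clusters. The next most often lower was Emb, in 11 of 13, with the interval below 1 in 3. Itgb1 went the other way, higher in the Skida1-deleted library in 12 of 13 clusters with a median fold of 1.10, and the interval lay above 1 in 7. For Cd44 no shared cluster had an interval away from 1.

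**Figure D2:**
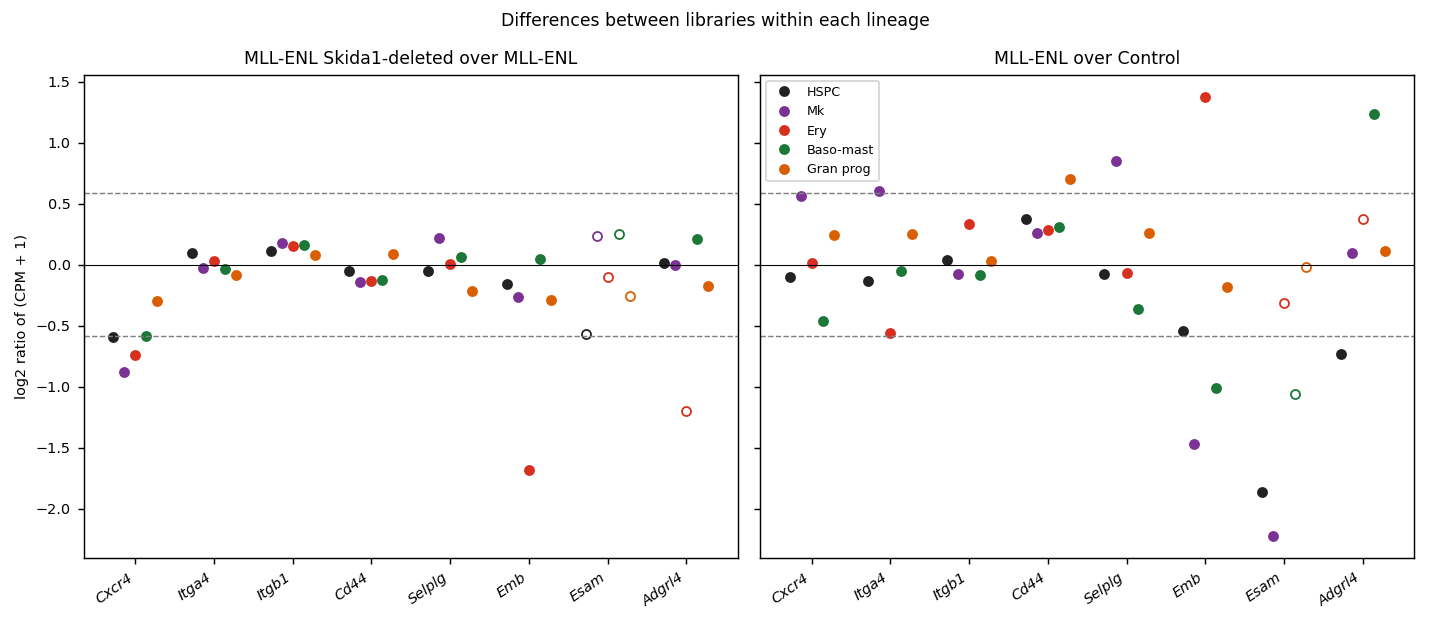
Log2 ratio of (CPM + 1) of each gene in each of 5 lineages, Skida1-deleted over MLL-ENL on the left and MLL-ENL over Control on the right, with dashed lines at 1.5-fold and open points where both libraries were under 5 CPM. On the left Cxcr4 lies below 0 in all 5 lineages and Emb at -1.69 in erythroid-like cells, and on the right Esam and Adgrl4 lie at -1.87 and -0.73 in HSPC-like cells.

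The share of cells with a Cxcr4 UMI depends on depth, so cells were also thinned to 3000 UMIs each, which left out 20 Skida1-deleted, 2 MLL-ENL and 5 Control HSPC-like cells below that depth. Before thinning, 13.5% of Skida1-deleted HSPC-like cells, 22.7% of those of MLL-ENL and 29.98% of those of Control had a UMI. After thinning the shares were 4.29% (exact binomial interval 3.49 to 5.21), 6.26% (5.16 to 7.51) and 6.99% (5.59 to 8.61). The intervals of the Skida1-deleted and MLL-ENL libraries just overlapped. Erythroid-like cells, the lineage with the lowest level, had thinned shares of 1.67%, 3.06% and 2.65% in the same order, below the HSPC-like share in each library.

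Basophil-mast-like cells had the highest Cxcr4 in all 3 libraries. Erythroid-like cells had the lowest value, although in Control they did not differ from megakaryocyte-like cells beyond counting error (fold 1.17, 0.740 to 1.77, megakaryocyte-like higher). The fold of basophil-mast-like over erythroid-like cells was 7.99 in the Skida1-deleted library, 6.68 in MLL-ENL and 9.36 in Control. In the middle of the order, granulocyte progenitor-like and HSPC-like cells did not differ beyond counting error in the Skida1-deleted library (fold 1.20, 0.939 to 1.51, granulocyte progenitor-like higher) or in MLL-ENL (fold 1.04, 0.846 to 1.28, HSPC-like higher). In Control the HSPC-like level was 1.33 times the granulocyte progenitor-like level.

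Itga4 (ENSMUSG00000027009, chromosome 2, 79255426-79333114) encodes the alpha chain of VLA-4, and Itgb1 (ENSMUSG00000025809, chromosome 8, 128685654-128733579) the beta chain it shares with many other integrins. Itga4 in HSPC-like cells had 288 CPM in the Skida1-deleted library (281 to 295), 269 in MLL-ENL (262 to 277) and 296 in Control (288 to 304). Itgb1 had 156 (151 to 161), 144 (139 to 149) and 141 (135 to 146). The 3 libraries lay close together for either gene, and neither passed 1.5-fold in HSPC-like cells. The Skida1-deleted over MLL-ENL folds were 1.07 (1.03 to 1.11) for Itga4 and 1.08 (1.03 to 1.14) for Itgb1, and the MLL-ENL over Control folds were 0.910 (0.877 to 0.945) and 1.02 (0.972 to 1.08).

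The chains differed in opposite directions in erythroid-like cells. Itga4 had 192 CPM there in the Skida1-deleted library, 188 in MLL-ENL and 277 in Control, whereas Itgb1 had 181, 163 and 129. Itga4 was thus lower in both MLL-ENL libraries than in Control, with a MLL-ENL over Control fold of 0.678 (0.668 to 0.689) that did not pass 1.5-fold, while Itgb1 was higher, at 1.27-fold. Expressed as Itgb1 UMIs per Itga4 UMI, the ratio in erythroid-like cells was 0.945 in the Skida1-deleted library, 0.866 in MLL-ENL and 0.464 in Control. In HSPC-like cells the same ratio was 0.541, 0.535 and 0.475, and in basophil-mast-like cells 0.275, 0.240 and 0.246. Megakaryocyte-like cells had 0.825, 0.713 and 1.15, the last from few Control UMIs, and granulocyte progenitor-like cells 0.722, 0.642 and 0.753. Control was the low library in erythroid-like cells under all 11 alternatives that changed the cells, their depth or their lineages. The levels also varied between erythroid-like clusters of a library. In MLL-ENL, Itga4 and Itgb1 had 256 and 138 CPM in cluster 8 but 141 and 164 in cluster 1. Control had 248 and 129 in cluster 5 and 373 and 112 in cluster 16. Since MLL-ENL and Control cells lay mostly in different clusters, whether the ratio differs within a cluster was not tested. In megakaryocyte-like cells no order of the libraries held: Control was highest in 4 of 10 such alternatives and lowest in 5, with ratios between 0.388 and 1.39. After thinning, 19.5% of Skida1-deleted HSPC-like cells, 17.3% of those of MLL-ENL and 18.4% of those of Control had at least 1 UMI of both chains.

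Itga4 was highest in basophil-mast-like cells in all 3 libraries, with 515 CPM in the Skida1-deleted library, 526 in MLL-ENL and 544 in Control, and HSPC-like cells came next. Granulocyte progenitor-like cells had 221, 234 and 196. All neighbours in the order of lineages were apart by more than counting error for Itga4. Megakaryocyte-like cells had 248, 254 and 166, so Control was the low library there, with 393 UMIs. A fold of 1.52 (1.37 to 1.70) for MLL-ENL over Control in megakaryocyte-like cells was past the threshold, but 5 of 15 alternatives turned its sign, with log2 ratios between -0.94 and 0.80 against 0.60 as computed here. Itgb1 was highest in megakaryocyte-like cells, at 205, 181 and 191. Granulocyte progenitor-like cells had 159, 151 and 148 and did not differ from HSPC-like cells beyond counting error in any library, and basophil-mast-like cells had 141, 126 and 134. Itgb1 varied least of the 8 genes across lineages, by 1.45-, 1.43- and 1.48-fold in the Skida1-deleted, MLL-ENL and Control libraries.

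Cd44 (ENSMUSG00000005087, chromosome 2, 102811141-102901669) encodes the main hyaluronan receptor, which in some glycoforms also binds selectins. In HSPC-like cells it had 79.6 CPM in the Skida1-deleted library (76.0 to 83.3), 82.5 in MLL-ENL (78.5 to 86.6) and 63.2 in Control (59.7 to 66.9). Both MLL-ENL libraries were above Control, and they overlapped each other. The MLL-ENL over Control fold of 1.30 (1.21 to 1.41) did not reach 1.5-fold, and the Skida1-deleted over MLL-ENL fold was 0.965. Granulocyte progenitor-like cells showed a wider gap, with 79.6, 74.8 and 45.6 CPM. There the MLL-ENL over Control fold of 1.64 (1.39 to 1.95) made Cd44 the only one of 7 genes past 1.5-fold higher, against 8.84% of all genes, and 0 of 7 were lower, against 17.6%. The log2 ratio of 0.70 ranged from 0.36 to 0.88 over the alternatives. Granulocyte progenitor-like cells did not differ from HSPC-like cells beyond counting error in the Skida1-deleted library or MLL-ENL, whereas in Control the HSPC-like level was 1.39 times as high (1.20 to 1.61). Skida1-deleted cells had 44.4 CPM in the megakaryocyte-like, 39.2 in the erythroid-like and 31.9 in the basophil-mast-like lineage. In these lineages the MLL-ENL level of Cd44 was also above Control, at 49.0 against 40.7 in megakaryocyte-like, 43.1 against 35.2 in erythroid-like and 34.9 against 27.9 in basophil-mast-like cells. The difference exceeded counting error in erythroid-like cells (fold 1.22, 1.18 to 1.27) but not in megakaryocyte-like (1.20, 0.965 to 1.52) or basophil-mast-like cells (1.25, 0.932 to 1.69).

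Selplg (ENSMUSG00000048163, chromosome 5, 113817798-113832528) encodes PSGL-1, the main ligand by which leukocytes roll on selectins. Its levels in HSPC-like cells were 80.4 CPM in the Skida1-deleted library (76.7 to 84.1), 83.5 in MLL-ENL (79.5 to 87.6) and 88.0 in Control (83.8 to 92.2) with neither fold past 1.5-fold. With MLL-ENL set over Control, the fold was 0.949 (0.887 to 1.02) and the Skida1-deleted over MLL-ENL fold was 0.963. Basophil-mast-like cells had 73.6, 70.2 and 90.5 and granulocyte progenitor-like cells 52.3, 60.8 and 50.6. HSPC-like and basophil-mast-like cells were the highest pair of the 5 compared lineages in each library. They differed beyond counting error in MLL-ENL only (fold 1.19, 1.05 to 1.35, HSPC-like higher). In erythroid-like cells all 3 libraries lay close together, at 15.2, 15.2 and 15.9. Megakaryocyte-like cells had 26.0, 22.2 and 11.9, the last from 28 UMIs. In that lineage the MLL-ENL over Control fold of 1.87 (1.26 to 2.88) turned its sign in 5 of 15 alternatives, with log2 ratios between -0.78 and 1.03 against 0.85. Together with Itga4 it made 2 of 8 genes past 1.5-fold higher in megakaryocyte-like cells, against 8.82% of all genes.

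Emb (ENSMUSG00000021728, chromosome 13, 117220573-117274415) encodes embigin, an immunoglobulin-family glycoprotein that promotes integrin-based adhesion and escorts monocarboxylate transporters to the membrane. In HSPC-like cells it had 199 CPM in the Skida1-deleted library (193 to 205, 4611 UMIs), 222 in MLL-ENL (215 to 229, 4393 UMIs) and 324 in Control (316 to 332, 6250 UMIs). Control was the high library, and the Skida1-deleted library was slightly below MLL-ENL. Over Control, MLL-ENL had a fold of 0.685 (0.659 to 0.712), a log2 ratio of -0.54, short of 1.5-fold. The Skida1-deleted over MLL-ENL fold was 0.898 (0.861 to 0.936).

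In 2 other lineages Emb did pass 1.5-fold, and was lower in MLL-ENL than in Control. In basophil-mast-like cells it had 118 CPM in the Skida1-deleted library, 114 in MLL-ENL and 231 in Control. A fold of 0.494 (0.436 to 0.559) for MLL-ENL over Control made it the only one of 7 genes past 1.5-fold lower, against 16.7% of all genes. Megakaryocyte-like cells held little Emb, with 4.13 (53 UMIs), 5.16 (50 UMIs) and 16.1 (38 UMIs). These UMIs came from few cells: 44 of 1080 in the Skida1-deleted library, 32 of 709 in MLL-ENL and 11 of 123 in Control. The fold there was 0.320 (0.206 to 0.502), and Emb and Esam were the 2 of 8 genes past 1.5-fold lower, against 19.0% of all genes. Over the alternatives the log2 ratio lay between -1.33 and -0.41 in basophil-mast-like cells and between -2.45 and -0.33 in megakaryocyte-like cells. Granulocyte progenitor-like cells had the highest Emb of the 5 compared lineages in all 3 libraries, at 299, 366 and 415. Their MLL-ENL over Control fold was 0.881 (0.827 to 0.939). The span between the highest and the lowest lineage of Emb was 258-fold in the Skida1-deleted library, 71.0-fold in MLL-ENL and 249-fold in Control. The MLL-ENL span rests on the low-depth erythroid-like clusters: without them it was 326-fold, beside 318-fold in the Skida1-deleted library and 268-fold in Control.

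Erythroid-like cells gave the opposite sign for Emb, and the values rested on 1 cluster. They held 1.16 CPM in the Skida1-deleted library (158 UMIs), 5.95 in MLL-ENL (877 UMIs) and 1.67 in Control (205 UMIs). The MLL-ENL over Control fold was 3.56 (3.05 to 4.17), the only one of 6 genes past 1.5-fold higher against 4.82% of all genes (0 of 6 were lower, against 10.7%), and the Skida1-deleted over MLL-ENL fold was 0.195 (0.164 to 0.231). Cluster 0, with 63 Skida1-deleted, 2947 MLL-ENL and 12 Control cells, held 720 of the 877 MLL-ENL UMIs. Its MLL-ENL cells had a median depth of 4230 UMIs, against 20064 for all erythroid-like MLL-ENL cells, and an Emb level of 49.4 (45.9 to 53.1). The 63 Skida1-deleted cells of that cluster had a similar level, 49.5, from 22 UMIs. Without the low-depth erythroid-like clusters the MLL-ENL over Control log2 ratio was -0.26 in place of 1.38, and the Skida1-deleted over MLL-ENL log2 ratio was -0.13 in place of -1.69. Without doublet removal the MLL-ENL over Control log2 ratio was -0.40. Adgrl4 behaved likewise, with 507 of its 668 erythroid-like MLL-ENL UMIs in cluster 0. The Cxcr4 ratio between the Skida1-deleted and MLL-ENL libraries in erythroid-like cells was -0.64 without these clusters, against -0.74 with them.

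Esam (ENSMUSG00000001946, chromosome 9, 37528089-37538319) encodes an immunoglobulin-family junction molecule of endothelium and platelets that also marks mouse haematopoietic stem cells. In HSPC-like cells it had 1.99 CPM in the Skida1-deleted library (1.45 to 2.65, 46 UMIs), 3.43 in MLL-ENL (2.67 to 4.35, 68 UMIs) and 15.2 in Control (13.5 to 17.0, 293 UMIs). Control lay well above both MLL-ENL libraries, and their intervals did not reach it. With MLL-ENL set over Control, the fold was 0.226 (0.171 to 0.296), a log2 ratio of -1.87. With Adgrl4 it made 2 of 8 genes past 1.5-fold lower in HSPC-like cells, against 13.9% of all 9839 genes, while 0 of 8 were higher, against 6.94%. Of the 14 ratios past 1.5-fold, over all 8 genes, 5 lineages and both comparisons, this was the only one that stayed past it in every alternative run, with log2 ratios between -2.22 and -1.26. The Skida1-deleted over MLL-ENL fold was 0.579 (0.389 to 0.854), but both libraries were under 5 CPM.

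The Esam difference was also present in the share of cells. Unthinned, 1.93% of Skida1-deleted HSPC-like cells, 3.39% of those of MLL-ENL and 18.6% of those of Control had an Esam UMI. At 3000 UMIs per cell the shares were 0.708% (0.405 to 1.15), 1.23% (0.762 to 1.87) and 5.61% (4.35 to 7.09). In erythroid-like cells the thinned shares were 0 of 4896 cells, 0.104% and 0.0863% in the Skida1-deleted, MLL-ENL and Control libraries. The count of 0 allows a share of cells with a UMI of up to 0.0613% by a limit of 3 cells, or 0.0753% by the exact binomial bound. Megakaryocyte-like cells had the highest Esam in all 3 libraries, with 4.91 CPM (63 UMIs), 4.02 (39 UMIs) and 22.5 (53 UMIs). In MLL-ENL that level did not differ from the HSPC-like one beyond counting error (fold 1.17, 0.769 to 1.76). In megakaryocyte-like cells the MLL-ENL over Control fold was 0.179 (0.115 to 0.276), with log2 ratios between -3.13 and -0.30 over the alternatives. In granulocyte progenitor-like cells Esam had 0 UMIs in the Skida1-deleted library, where 3 UMIs would be 0.611 CPM, and 1 UMI in each of the other libraries. Basophil-mast-like cells had 2, 1 and 4 Esam UMIs, and erythroid-like cells 7, 19 and 49.

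Esam was not spread evenly over HSPC-like clusters. Cluster 7 had the highest level in both MLL-ENL libraries, with 5.25 CPM in the Skida1-deleted library and 11.1 in MLL-ENL. Clusters 4 and 11 had at most 1.74 in either. Both Control clusters were higher or as high, with 18.1 in cluster 12 and 11.6 in cluster 20. In cluster 7 the Skida1-deleted over MLL-ENL fold was 0.475 (0.278 to 0.787), the only shared cluster in which the Esam interval lay below 1.

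Adgrl4 (ENSMUSG00000039167, chromosome 3, 151437882-151545081) encodes ELTD1, an adhesion G protein-coupled receptor known mainly from blood vessel growth. It had 244 CPM in Skida1-deleted HSPC-like cells (238 to 250, 5647 UMIs), 242 in MLL-ENL (235 to 249, 4784 UMIs) and 401 in Control (392 to 410, 7749 UMIs). Both MLL-ENL libraries lay together, below Control. Over Control, MLL-ENL had a fold of 0.602 (0.581 to 0.624), a log2 ratio of -0.73, and the Skida1-deleted over MLL-ENL fold was 1.01 (0.971 to 1.05). For MLL-ENL over Control the log2 ratio kept its sign in all 17 alternatives and stayed past 1.5-fold in 16. The exception was a stricter filter on cells within the same lineages, which gave -0.49 and left 1808 Skida1-deleted, 696 MLL-ENL and 358 Control cells. Of the 17, leaving out the low-depth erythroid-like clusters and lowering the CPM limit could not change this ratio. HSPC-like clusters 4, 7 and 11 had levels of 248, 292 and 220 in the Skida1-deleted library. The same clusters had 241, 278 and 225 in MLL-ENL. All of these lay below Control clusters 12 and 20, at 416 and 388. Whether the difference is present within a cluster was not tested, because MLL-ENL and Control cells lay in different clusters. Clusters 4, 7 and 11 held 13, 7 and 3 Control cells, and clusters 12 and 20 held 45 and 1 MLL-ENL cells.

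Adgrl4 was highest in HSPC-like cells in all 3 libraries and lowest in erythroid-like cells, by 174-fold in the Skida1-deleted library, 53.3-fold in MLL-ENL and 123-fold in Control. Without the low-depth erythroid-like clusters these spans were 205-fold, 204-fold and 125-fold, so that the small MLL-ENL value rests on those clusters. Basophil-mast-like cells were the lineage in which Control was clearly the low library: 61.4 CPM in the Skida1-deleted library, 53.0 in MLL-ENL and 21.9 in Control. There the MLL-ENL over Control fold of 2.42 (1.79 to 3.31) was the only one of 7 past 1.5-fold higher, against 8.18% of all genes. Its log2 ratio of 1.24 ranged from 0.04 to 1.62 over the alternatives. The markers of this lineage differed between the libraries as well: its own 17 summed to 2967 CPM in the Skida1-deleted library, 4333 in MLL-ENL and 7612 in Control, the 18 HSPC markers to 1207, 981 and 2140, and the 19 granulocyte progenitor markers to 5787, 6195 and 8670. Their part in the Adgrl4 and Emb differences of this lineage was not tested. Megakaryocyte-like levels were 36.2, 36.4 and 33.9, and granulocyte progenitor-like levels 76.7, 86.9 and 80.1, and the libraries lay close together in both lineages.

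Markers of liver endothelium were examined beside Esam and Adgrl4, since both genes are active there. The 14 endothelial markers summed to 256 CPM in Skida1-deleted HSPC-like cells, 285 in MLL-ENL and 422 in Control. Egfl7, which blood stem cells also express, gave 239, 267 and 401 of these. Among the markers under 1 CPM, Cdh5 had 0.173, 0.0505 and 0.932 CPM, Stab2 0.173, 0.101 and 0.104, and Lyve1 had no UMI in any library. At least 1 CPM was reached by 4 of 14 markers in the Skida1-deleted library, 5 in MLL-ENL and 4 in Control. Some markers besides Egfl7, not named here, were thus present at 1 CPM or more. In HSPC-like cells, T, NK and innate lymphoid markers summed to 61.0, 59.1 and 114 CPM and macrophage markers to 3.97, 5.20 and 10.5, again highest in Control. Their part in the results was not tested. The HSPC-like clusters' own 18 markers summed to 1667, 1684 and 2132 CPM in the Skida1-deleted, MLL-ENL and Control libraries.

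**Figure D3:**
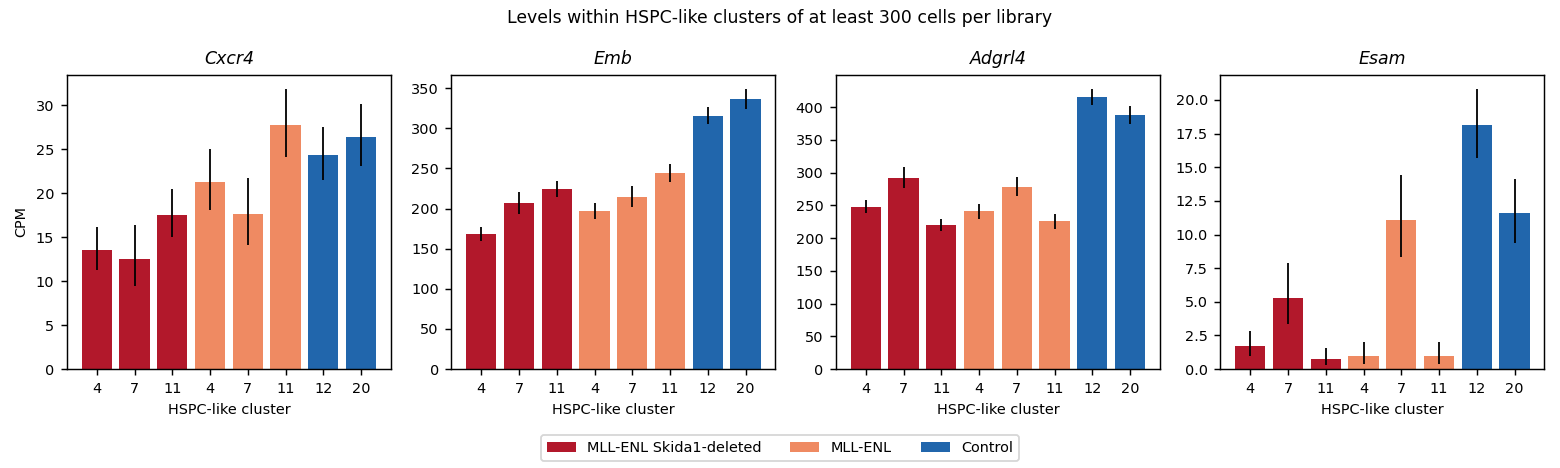
Levels of Cxcr4, Emb, Adgrl4 and Esam (CPM, axes from 0) in HSPC-like clusters with at least 300 cells of a library, with bars coloured by library and lines for 95% exact Poisson intervals. Cxcr4 is lower in the Skida1-deleted bars than in the MLL-ENL bars of the same cluster, Adgrl4 is highest in both Control clusters (416 and 388), and Esam in both MLL-ENL libraries is highest in cluster 7 (5.25 and 11.1).

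Over the whole set, the median log2 ratio of the 8 genes in HSPC-like cells was -0.12 for MLL-ENL over Control, beside -0.11 for all genes. Thus all genes together were shifted downwards by about the same amount, and the shift was -0.02 with scaling by the median of gene ratios. For Skida1-deleted over MLL-ENL the median of the 7 measured genes was -0.05 and that of all genes -0.02. Both comparisons share the MLL-ENL library. Over all kept cells, Emb (37.9, 41.7 and 79.4 CPM in the Skida1-deleted, MLL-ENL and Control libraries) and Adgrl4 (38.3, 34.8 and 56.8) were the 2 of 7 genes past 1.5-fold lower in MLL-ENL than in Control, against 10.6% of all genes, and 0 of 7 were higher, against 4.42%. These totals also move with the share of each lineage in a library, since HSPC-like cells made up 24.4%, 15.8% and 21.6% of kept cells.

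HSPC-like cells were then split within each library by surface tags, none of which targets any of the 8 proteins. Cells were ranked by the share of a tag among the cell's tag UMIs, and the upper tercile was set over the lower one (760 cells each in the Skida1-deleted library, 570 in MLL-ENL and 388 in Control). Depth differs between terciles: for Sca1 the median cell had 6134 UMIs in the upper and 12170.5 in the lower tercile of the Skida1-deleted library, 6730.5 and 14768 in MLL-ENL, and 11079.5 and 20306 in Control. The shares of tags are also tied to each other, because CD48 alone took a median of 52.5% (Skida1-deleted), 42.8% (MLL-ENL) and 47.8% (Control) of tag UMIs even in its own lower tercile.

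Esam showed the steepest contrasts with tags that enrich stem cells. For CD201 (EPCR) its upper over lower tercile fold was 6.34 (2.84 to 16.0) in the Skida1-deleted library, 6.75 (3.52 to 14.0) in MLL-ENL and 7.14 (5.09 to 10.2) in Control. For CD150 (SLAMF1) the folds were 16.4, 7.33 and 10.4, and the Control levels behind the last were 40.3 and 3.89 CPM. For CD48, which stem cells lack, the folds were 0.239, 0.0654 and 0.172. All 3 libraries thus had Esam on the CD201-high, CD150-high and CD48-low side, although the level in Control was far higher. With Sca1 the folds were 5.96, 53.6 and 9.37, where the MLL-ENL value rests on 51 and 2 UMIs. On the RNA side, cells with a UMI of the stem-cell transcription factor gene Hlf had 4.59, 5.01 and 9.46 times the Esam level of cells without one, or 2.72, 2.02 and 2.99 times when cells were thinned to 3000 UMIs first. Cells scored as G1 had 3.42, 5.19 and 3.48 times the Esam level of cells scored as S or G2M. The share of cells scored as G1 was higher in both MLL-ENL libraries than in Control, and its part in the Esam levels was not tested.

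Emb and Cxcr4 followed the CD34 and CD135 (FLT3) tags. The Emb fold for CD34 was 2.41 in the Skida1-deleted library, 2.20 in MLL-ENL and 1.64 in Control, and for CD135 it was 1.45, 1.41 and 1.38. For CD150 the Emb folds were below 1, at 0.809, 0.768 and 0.601. Cxcr4 had CD34 folds of 1.87 (1.40 to 2.52), 1.83 (1.43 to 2.34) and 1.71 (1.36 to 2.17), and CD135 folds of 1.89 (1.45 to 2.47), 1.31 (1.05 to 1.64) and 1.69 (1.35 to 2.12). Cxcr4 was lower in HSPC-like cells scored as G1 than in those scored as S or G2M, by folds of 0.726, 0.684 and 0.638. In each library, then, Cxcr4 was on the CD34-high and CD135-high side.

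The integrin and hyaluronan genes split in opposite ways. Itga4 was higher with CD48 (folds 1.32, 1.32 and 1.27), with CD41 (1.502, 1.40 and 1.32) and with CD117 (1.32, 1.21 and 1.22), and lower with Sca1 (0.658, 0.690 and 0.674). Cd44 was higher with Sca1 (1.37, 1.41 and 1.37) and lower with CD48 (0.780, 0.699 and 0.823), and its G1 over S and G2M folds were 1.29, 1.35 and 1.37. Selplg differed little, with Sca1 folds of 1.19, 1.11 and 1.32. For Itgb1 all tag folds lay between 0.900 and 1.20, so its near-even level across lineages was repeated within HSPC-like cells.

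For Adgrl4, the Control folds stood apart from both MLL-ENL libraries for several tags. Its Sca1 fold was 1.20 in the Skida1-deleted library, 1.13 in MLL-ENL and 1.63 in Control, and its CD34 fold was 0.710, 0.685 and 1.02. Its CD201 fold was 1.10, 0.933 and 1.37. Cells with an Hlf UMI had 1.83, 1.87 and 1.80 times the Adgrl4 level of the others, or 1.33, 1.26 and 1.33 times after thinning. Whether these patterns differ between genotypes was not tested.

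**Figure D4:**
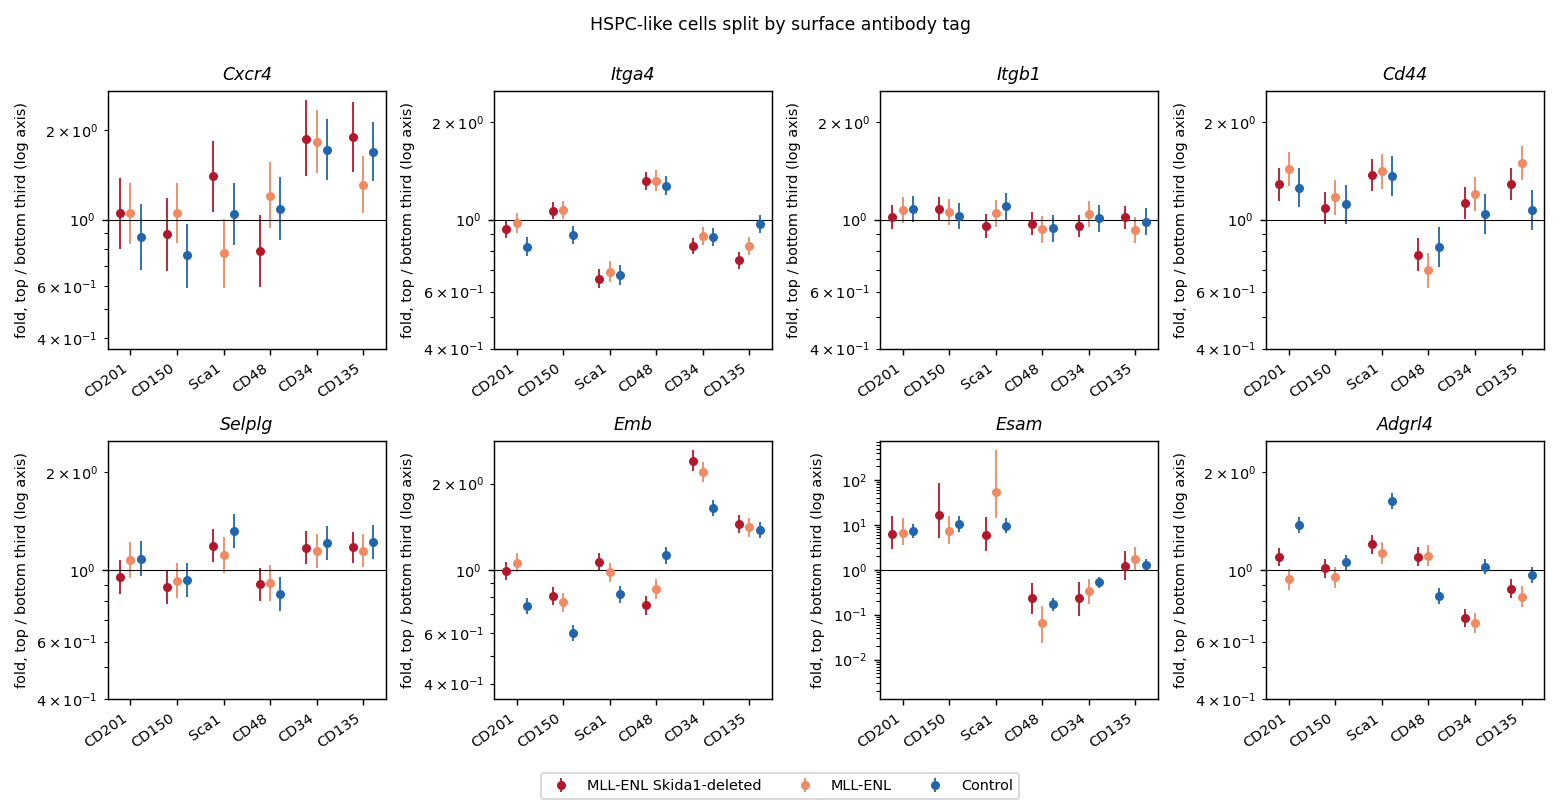
Fold of each gene between the upper and the lower tercile of HSPC-like cells ranked by each of 6 surface tags (log axis), in the Skida1-deleted, MLL-ENL and Control libraries, with 95% intervals for counting error and a line at 1. Esam lies above 1 for CD201, CD150 and Sca1 and below 1 for CD48 and CD34 in all 3 libraries, Emb and Cxcr4 lie above 1 for CD34 and CD135, and the Itgb1 folds stay within 0.900 to 1.20.

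Other genes of these routes were read from 12 lists of chemokine receptors, integrins, selectin ligands, hyaluronan binding, junctional, tetraspanin and related genes. In HSPC-like cells 140 of the 234 listed genes outside the 8 were measured for MLL-ENL over Control. Of these 9 were past 1.5-fold higher (6.43%) and 17 lower (12.1%), close to the shares of all genes, and their median log2 ratio was -0.02. For Skida1-deleted over MLL-ENL 136 were measured, 0 were higher and 1 was lower (0.735%), with a median of -0.03. That 1 was Rgs14, a regulator of G protein signalling, at 5.36 CPM in the Skida1-deleted library and 8.69 in MLL-ENL (fold 0.617, 0.486 to 0.781). Genes below 30 CPM in both libraries, in the lists that follow, were like Rgs14 named after their values were seen. The other list genes stayed inside 1.5-fold, and those with wide Skida1-deleted to MLL-ENL gaps follow. Cd53, a tetraspanin gene of leukocytes, had 43.5 CPM in the Skida1-deleted library and 61.1 in MLL-ENL, and Cd47, whose product shields cells from phagocytosis, had 574 and 729. On the higher side, Lyn, a Src-family kinase gene, had 58.8 and 43.4, and Rdx, which encodes the membrane-cytoskeleton linker radixin, had 362 and 290.

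The counts of the single lists that follow are small, and are read against the 6.94% of all genes that were past 1.5-fold higher and the 13.9% that were lower. Among chemokine and other homing receptors, 1 of 10 was past 1.5-fold lower in MLL-ENL than in Control and 0 were higher: Cxcr3, with 1.82 CPM in MLL-ENL and 6.27 in Control. Of 19 regulators of these receptors 2 were lower. They were Dpp4, the protease that clips CXCL12, at 12.6 in MLL-ENL and 26.5 in Control, and Rgs19, at 52.2 and 85.5. Of 9 integrin alpha chains 2 were higher: Itgal, the alpha chain of LFA-1, at 40.6 and 25.0, and Itgam, at 14.4 and 8.96. None of 3 beta chains passed in either direction. Of 29 integrin activation genes, the kinase gene Syk was higher, at 105 in MLL-ENL and 57.4 in Control, and Ptk2, the focal adhesion kinase gene, was lower, at 2.98 and 5.70. Of 10 selectins and mucin-type ligands Muc13 was lower, at 17.2 and 28.0, and Cd24a, a P-selectin ligand gene, stayed just short of the threshold, at 101 and 67.1.

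In the glycosylation list, whose enzymes build selectin ligands, 2 of 14 were higher and 3 lower. Fut7, which adds the fucose that selectin binding needs, had 9.49 CPM in MLL-ENL and 22.0 in Control, and Tpst2, which sulphates tyrosines, had 38.1 and 61.0. The third was C1galt1c1, with a fold of 0.571. St3gal1, a sialyltransferase gene, and B4galt1, a galactosyltransferase gene, were higher, with folds of 1.60 and 1.54. Of 10 hyaluronan and matrix-binding genes 2 were higher and 2 lower. The galectin gene Lgals1 had 605 in MLL-ENL and 275 in Control, and Lgals9 had 247 and 141. Hmmr, a hyaluronan receptor that is also a mitotic gene, had 27.6 and 86.7, beside a higher share of cells scored as G1 in MLL-ENL, whose part was not tested. Of 17 junctional genes 1 was higher and 2 were lower beside Esam. The protocadherin gene Pcdh7 had 247 in MLL-ENL and 35.3 in Control, and Cd48, which was among the lower ones, had 74.4 and 197. Of 15 tetraspanins and partners 3 were lower: Cd53 with a fold of 0.648, Cd82 with a fold of 0.552, and Tspan4 at 52.0 and 88.4. Of 7 adhesion G protein-coupled receptors Adgre5 was higher, at 7.63 and 3.99, and Adgrl2 was lower, at 4.09 and 7.77, beside Adgrl4. Among 7 partners of embigin and basigin, the amino acid transporter gene Slc7a5 was lower, at 10.0 and 18.0.

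Across 15 sums, 1 per library and lineage, the genes with the profile most like each of the 8 were ranked by Pearson's r of log2 (CPM + 1) over 7387 genes. The values describe these sums, which share libraries and depths. Closest to Cxcr4 were Rapgef2 (0.976) and Slc7a8 (0.973), to Itga4 P2rx4 (0.933) and Itgb7 (0.921), and to Itgb1 Ipo8 (0.844) and Tpm1 (0.840). Closest to Cd44 were Nacc1 (0.904) and Ptrhd1 (0.872), and to Selplg Anxa6 (0.987) and Lcp1 (0.973). Emb was closest to Ms4a6c (0.987) and Ms4a6b (0.9805), Esam to Sla2 (0.943) and Tspan4 (0.916), and Adgrl4 to Gpr171 (0.974) and Ifi203 (0.970). Among the 8 genes themselves the highest values were 0.884 for Selplg and Emb, 0.817 for Cxcr4 and Selplg, and 0.816 for Cxcr4 and Itga4, and the lowest was -0.685 for Cxcr4 and Itgb1.

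**Figure D5:**
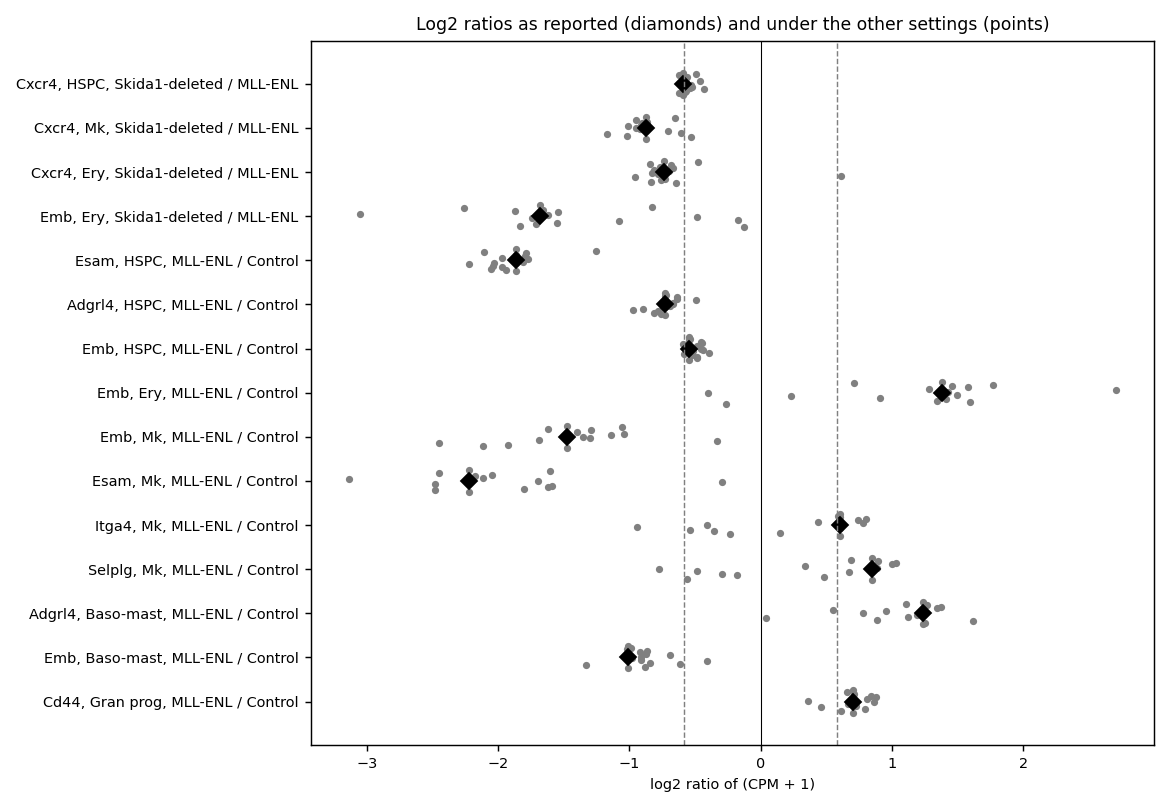
Log2 ratios of 15 results as reported (diamonds) and under the other settings (points), with dashed lines at 1.5-fold; each label names the gene, the lineage and the pair of libraries, first over second. Esam in HSPC-like cells stays between -2.22 and -1.26, Cxcr4 in HSPC-like cells crowds around the line, between -0.62 and -0.43, and megakaryocyte-like Itga4 and Selplg fall on both sides of 0.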

How the data were processed

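The authors deposited raw UMI counts per gene and antibody tag for each cell barcode, 1 matrix per library, made with the 10x Genomics Chromium single-cell 3' kit version 3.1 with feature barcodes, per the labels' protocols. The counts are not normalized and came from Cell Ranger 6.1.2, per the file headers. Version 6.0.1 and build mm10 are given per the submitters' processing notes. The matrices listed 10543 barcodes (Skida1-deleted), 11910 (MLL-ENL) and 6091 (Control), with 207395090, 198773992 and 180656900 gene UMIs. Nothing in the sources used here states other filters by the submitters.

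The filter kept cells in which 500 or more genes were detected, 1000 or more UMIs were counted and less than 10% of UMIs were mitochondrial (9962, 11148 and 5777). Doublets called by Scrublet in scanpy 1.11.5 (618, 341 and 383 cells; 6.20%, 3.06% and 6.63%) were removed. The 3 libraries were clustered together without batch correction (2000 variable genes, 30 principal components, 15 neighbours, Leiden resolution 1 with leidenalg 0.10.2) in Python 3.11.15, leaving out the 8 genes, the role lists and cell cycle genes. This gave 31 clusters. A cluster was named when at least 3 markers of a class were among its top 50 genes. The naming rule replaced an earlier one after its output was seen. Comparisons were limited to lineages of 100 or more cells in each library. UMIs were summed per library and lineage, and intervals and folds were computed with scipy 1.17.1 as described with the results. Named from the lists were up to 3 further genes per list with the largest log2 ratio among those with at least 30 CPM in either library and 50 UMIs over both, and the 2 genes most like each of the 8. Of the list genes, 2 are not reported here. The fold script was tested on simulated data. Chromosome positions and promoters were looked up by symbol in RefSeq tables on GRCm38.p6, which mm10 denotes. The genes, lists and lineages were chosen with earlier results of these data known. The alternatives were other clusterings, lineage calls, cell filters, scalings, pseudocounts and thinning, and 6 of them were added after seeing the data. A lower CPM limit was also run, which changes the genes measured but no ratio. Leaving out the low-depth erythroid-like clusters changes no value of the other lineages.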

Additional observations from a re-analysis of the deposited data

Results flagged for a closer look

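For 2 genes the MLL-ENL over Control log2 ratio pointed in opposite directions in different lineages, each past 1.5-fold. Emb was at -1.47 in megakaryocyte-like cells and -1.01 in basophil-mast-like cells, but at 1.38 in erythroid-like cells, where cluster 0 held 720 of the 877 MLL-ENL UMIs. Adgrl4 was at -0.73 in HSPC-like cells and at 1.24 in basophil-mast-like cells. The difference between lineages was not tested, since each library is the only one of its genotype.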

How the results depend on the processing

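Of 70 lineage log2 ratios over the 5 lineages and both comparisons, 14 were past 1.5-fold. Over the alternatives 10 of these kept their sign throughout and 1 stayed past 1.5-fold throughout. In HSPC-like cells the number of genes past 1.5-fold higher (0 in either comparison) and the number lower in MLL-ENL than in Control (2) did not change, but with the strict cell filter inside the same lineages the 2 were Emb and Esam in place of Esam and Adgrl4. The number lower in the Skida1-deleted library than in MLL-ENL was 1 as reported. It was 0 under Leiden resolution 2, with lineages taken from the nearest Control cells or from a marker score per cell, in cells with an Hlf UMI, with granulocyte progenitor-like cells added to the HSPC-like ones, with cell cycle genes kept for clustering, without doublet removal, in cells thinned to 3000 UMIs, with the strict cell filter inside the same lineages, with median of gene ratios scaling and with a pseudocount of 5. It was 2, Cxcr4 and Esam, with hemoglobin, mitochondrial and ribosomal protein genes left out of the total, which brought Esam past 5 CPM. In G1 cells the number stayed at 1, but Cxcr4 was not past 1.5-fold lower there. In megakaryocyte-like cells the MLL-ENL over Control log2 ratios of Itga4 and Selplg turned negative at resolution 0.5 (-0.23 and -0.56), with the nearest Control cells (-0.35 and -0.18), with the marker score (-0.54 and -0.29), without doublet removal (-0.94 and -0.49) and with the strict cell filter (-0.41 and -0.78). In erythroid-like cells that of Emb turned negative without the low-depth clusters (-0.26) and without doublet removal (-0.40), and the Skida1-deleted over MLL-ENL ratio of Cxcr4 was 0.61 in G1 cells, from 7 and 9 UMIs. With cells ranked by raw tag UMIs, Esam turned for CD41 in Control (-0.0078) and for CD117 (-1.77), CD16/32 (-0.54) and CD127 (-0.046) in MLL-ENL. The cause was not tested. Of the erythroid-like Emb UMIs of MLL-ENL, 720 of 877 lay in the low-depth cluster 0. Of 40 tag ratios past 1.5-fold, 34 kept their sign in both alternatives. The strict cell filter with clustering repeated gave no HSPC-like value, since 7 Control cells were then called HSPC-like. No paired analysis was possible because each genotype has 1 library. Depth limits Esam most, with 46 UMIs in Skida1-deleted HSPC-like cells, 68 in MLL-ENL and 293 in Control.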

Other observations

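Smaller groups of cells, each with under 100 cells in at least 1 library, were not compared but add to the picture of where these genes are active. The 180 Control cells of the monocyte-dendritic-like class had the highest Emb level of any class, 712 CPM, beside 147 for Selplg, 47.1 for Cxcr4 and 45.4 for Adgrl4. This class had 2 cells in the Skida1-deleted library and 9 in MLL-ENL. B-lineage-like cells (100 cells in the Skida1-deleted library, 93 in MLL-ENL and 45 in Control) had 46.7 CPM of Cxcr4 in the Skida1-deleted library, 82.5 in MLL-ENL and 78.6 in Control, from 19, 46 and 26 UMIs, and 376, 328 and 514 of Itga4. Eosinophil-like cells (35, 23 and 19 cells) had 215, 197 and 168 of Emb.

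Within the erythroid-like cells of Control, Adgrl4 and Emb were not spread evenly. Cluster 16 had 17.7 CPM of Adgrl4 and 5.04 of Emb, and cluster 18 had 14.5 and 3.51. The largest Control cluster, cluster 5 with 1468 cells, had 0.160 and 0.898. Cxcr4 was also higher in clusters 16 and 18, at 13.3 and 14.3, than in cluster 5, at 7.41.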
